A study of Mus musculus with 12 samples.

Results

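Of the 84243 peaks in the master peak-list of mouse blood cells, 2017 (2.39%, 95% Wilson interval 2.29 to 2.50%) lay on long interspersed element 1 (L1) repeats. An L1 peak is a row of the list whose detailed HOMER annotation names a repeat of class LINE and family L1, and all such rows were kept, whatever their subfamily, location or nearest gene. The peaks came from ATAC-seq, in which a transposase cuts exposed DNA and leaves sequencing adapters at the cuts. Wild-type C57BL/6 mice aged 8 to 12 weeks gave 12 samples of 6 sorted cell types, each with 2 replicates. Bone marrow was the source of the hematopoietic stem cells (HSCs), the megakaryocyte progenitors (MkPs), the erythroid progenitors (EPs), the granulocyte/macrophages (GMs) and the B cells, and the label of the T cells names the thymus. No group carried a transgene or received an agent. The list was pooled over the cell types, with reads that align to several places in the genome left out, and it holds no value for any one sample or cell type. An L1 peak was therefore open in at least 1 of the 6 cell types, but in which one cannot be read from it, and neither depth nor spread between replicates is known. The intervals given here cover counting error only, and differences between sets of peaks are described and were not tested.

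L1 elements are retrotransposons, which multiply in the genome by copying their own RNA back into DNA. A complete element has a promoter region at its 5′ end, an open reading frame for an RNA-binding protein (ORF1), another for a protein with endonuclease and reverse transcriptase activity (ORF2), and a 3′ untranslated end with a tail of A. Copying usually starts at the 3′ end and stops early, so most copies are truncated and lack the promoter region. Subfamily names follow the age of the copies. L1Md names are those of the mouse, where some A and T elements can still move, Lx, L1_Mus, L1_Mur, L1VL and L1_Rod names are older elements of rodents, to which MusHAL1 was added, and L1M and the other HAL1 names are shared across mammals. In most adult cells L1 copies are kept closed by DNA methylation and repressive histone marks. These sets of names are called young, rodent and mammal-wide.

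To show what such peaks look like, the central 201 bases of 3 L1 peaks follow, 1 for each age set. Each is the peak of its set closest to the TSS of a gene in the lineage lists used further on. The Gata3 peak, the only young one with such a nearest gene, lay 201261 bp from its TSS. Gata3 encodes a transcription factor of T cells, Itgam the integrin chain of the Mac1 antigen, and Cd247 the zeta chain of the T cell receptor complex. Another 4 peaks follow, in which a consensus site for CTCF (Lyst), GATA (Ube2e3), RUNX (Rasl12) or ETS factors (Defb41) lay closest to the peak centre. Positions are in mm10, and the sequence is that of RefSeq GRCm38. Capitals mark exact matches, on either strand, to the motif AGATAA of GATA factors, the motif AGGAAG of ETS factors, the motif AACCACA of RUNX factors and the CTCF consensus.
Gata3, L1Md_F2, chr2:9677239-9677439, plus strand: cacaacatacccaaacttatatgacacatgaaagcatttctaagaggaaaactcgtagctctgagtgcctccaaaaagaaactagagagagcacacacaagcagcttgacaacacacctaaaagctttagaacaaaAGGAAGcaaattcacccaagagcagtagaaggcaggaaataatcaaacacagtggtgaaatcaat
Itgam, Lx8b, chr7:128065692-128065892, plus strand: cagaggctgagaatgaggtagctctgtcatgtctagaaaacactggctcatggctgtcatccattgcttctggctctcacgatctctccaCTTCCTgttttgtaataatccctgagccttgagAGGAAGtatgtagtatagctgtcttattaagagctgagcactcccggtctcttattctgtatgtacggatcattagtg
Cd247, L1MB7, chr1:165786478-165786678, plus strand: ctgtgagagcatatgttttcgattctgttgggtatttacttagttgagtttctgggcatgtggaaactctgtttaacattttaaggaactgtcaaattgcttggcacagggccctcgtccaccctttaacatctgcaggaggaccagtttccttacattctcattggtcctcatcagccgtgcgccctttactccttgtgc
Lyst, Lx8b, chr13:13612945-13613145, plus strand: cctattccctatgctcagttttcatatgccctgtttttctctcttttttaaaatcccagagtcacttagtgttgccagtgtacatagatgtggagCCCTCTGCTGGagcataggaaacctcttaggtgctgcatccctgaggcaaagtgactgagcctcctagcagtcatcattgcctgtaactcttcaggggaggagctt
Ube2e3, Lx7, chr2:78883131-78883331, plus strand: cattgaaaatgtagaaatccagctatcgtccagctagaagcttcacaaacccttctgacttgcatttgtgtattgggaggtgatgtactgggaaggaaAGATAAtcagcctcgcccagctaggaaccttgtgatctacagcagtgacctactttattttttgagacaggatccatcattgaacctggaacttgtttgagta
Rasl12, L1MC4a, chr9:65404784-65404984, plus strand: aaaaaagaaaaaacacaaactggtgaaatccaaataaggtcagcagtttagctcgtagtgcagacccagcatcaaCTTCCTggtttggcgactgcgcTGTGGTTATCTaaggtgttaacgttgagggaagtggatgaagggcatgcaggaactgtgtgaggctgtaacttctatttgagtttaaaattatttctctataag
Defb41, Lx8, chr1:18271215-18271415, plus strand: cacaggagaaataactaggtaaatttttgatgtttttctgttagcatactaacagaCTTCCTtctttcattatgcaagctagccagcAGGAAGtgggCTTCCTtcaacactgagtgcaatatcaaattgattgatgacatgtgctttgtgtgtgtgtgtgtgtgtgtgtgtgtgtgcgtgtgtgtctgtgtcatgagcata
The Itgam peak held 2 ETS matches in these bases, and the Cd247 peak held none of the 4 motifs there. In the Rasl12 peak the RUNX match runs into a GATA match, and the RUNX match lies over the peak centre. The Defb41 peak was 1 of 17 that tied for the ETS site closest to the centre, at 0.5 bp, and was taken by position. In the same way the Ube2e3 peak was taken from 3 that tied for GATA and the Rasl12 peak from 2 for RUNX.

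Peaks of different chromosomes often sat on the same stretch of the repeat, and 3 such stretches are shown next because the results on single copies turn on them. The first lies in ORF2, the second in Lx5c elements and the third in Lx9 elements. Each line gives a peak by its nearest gene, with the shared site in capitals and 40 bases on either side, read so that the motif is on the plus strand. The ORF2 stretch, with its ETS match in capitals, read as follows in 4 peaks.
Dars, L1Md_T, chr1:128487354-128487439, minus strand: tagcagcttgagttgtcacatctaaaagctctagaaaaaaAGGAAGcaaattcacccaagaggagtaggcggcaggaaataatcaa
Gm33301, L1Md_F2, chr15:40201918-40202003, plus strand: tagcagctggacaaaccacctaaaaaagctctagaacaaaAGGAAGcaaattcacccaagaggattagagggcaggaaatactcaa
Galnt10, L1Md_F2, chr11:57638757-57638842, plus strand: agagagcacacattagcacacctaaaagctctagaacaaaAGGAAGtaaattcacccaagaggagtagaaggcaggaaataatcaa
Foxn2, L1Md_F2, chr17:88454402-88454487, plus strand: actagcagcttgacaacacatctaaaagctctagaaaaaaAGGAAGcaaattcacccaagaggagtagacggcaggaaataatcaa
The Lx5c stretch, with its CTCF match in capitals, read as follows in 4 peaks.
Ndst3, Lx5c, chr3:123780660-123780750, minus strand: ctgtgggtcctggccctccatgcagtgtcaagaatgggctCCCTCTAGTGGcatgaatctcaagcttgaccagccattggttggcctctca
Gbp5, Lx5c, chr3:142490609-142490699, minus strand: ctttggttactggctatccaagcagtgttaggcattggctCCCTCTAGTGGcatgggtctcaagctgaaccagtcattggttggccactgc
Manea, Lx5c, chr4:26248357-26248447, minus strand: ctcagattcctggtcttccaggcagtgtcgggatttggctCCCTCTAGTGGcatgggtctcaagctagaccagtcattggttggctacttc
Arl6, Lx5c, chr16:59846728-59846818, minus strand: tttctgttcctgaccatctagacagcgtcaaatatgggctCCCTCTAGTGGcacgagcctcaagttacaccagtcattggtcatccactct
The Lx9 stretch, with its ETS match in capitals, read as follows in 3 peaks.
Lilrb4a, Lx9, chr10:51520214-51520299, plus strand: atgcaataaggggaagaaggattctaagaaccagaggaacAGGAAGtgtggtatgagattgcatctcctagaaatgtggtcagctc
Sypl, Lx9, chr12:32971801-32971886, minus strand: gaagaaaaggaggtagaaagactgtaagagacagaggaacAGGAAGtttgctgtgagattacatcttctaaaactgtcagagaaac
Casr, Lx9, chr16:36588170-36588255, plus strand: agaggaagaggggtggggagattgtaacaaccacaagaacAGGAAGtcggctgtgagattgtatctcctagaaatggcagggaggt
Against the first line of its set, the other ORF2 lines were the same at 81.4 to 83.7% of positions, the Lx5c lines at 72.5 to 80.2% and the Lx9 lines at 65.1 to 67.4%. Lines were taken in order of this agreement, among sites alike to the first at 60% or more of positions. Their likeness is thus partly set by the choice. The Gata3 peak shown above also held the ORF2 stretch with its ETS match, although it was centred at another point of the element.

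L1 was the second most frequent repeat family in the list. It made up 15.8% of the 12746 peaks with a repeat name, after ERVL-MaLR long terminal repeats with 3378 peaks and before B2 short interspersed elements with 1781. The L1 peaks carried 118 subfamily names, of which 24 occurred once. Rodent names accounted for 1042 peaks (51.7%) and mammal-wide names for 918 (45.5%), while young names accounted for 57 (2.83%, interval 2.19 to 3.64%). The Lx elements alone, with 21 names, held 880 peaks (43.6%). Lx8 led with 270 peaks, followed by Lx9 with 104, Lx7 with 98, Lx8b with 81 and Lx5c with 70. Among mammal-wide names the L1MB elements were the most frequent, with 249 peaks, and L1MB7 and L1MB8 had 51 each. Of the 57 young peaks, 46 were L1Md_F2. L1Md_A and L1Md_T, of which some copies can still move, had 2 peaks each.

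**Figure D1:**
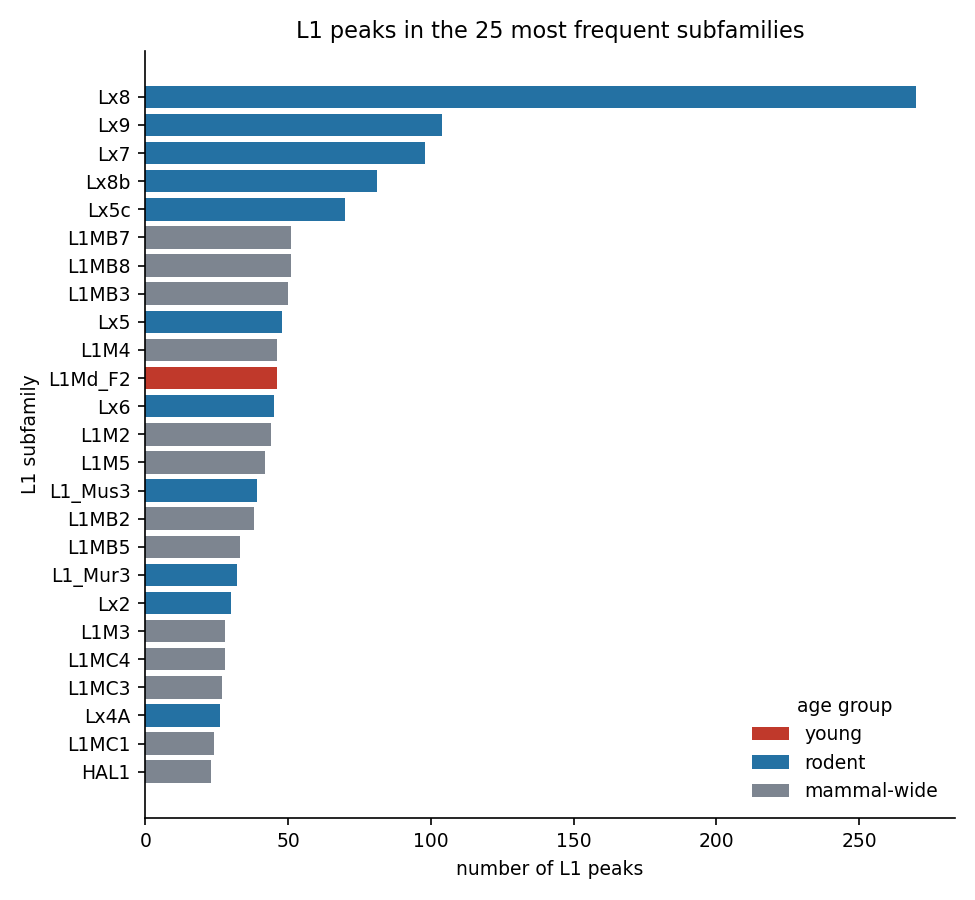
Number of L1 peaks (x axis) in each of the 25 most frequent L1 subfamilies (y axis), with bars coloured by age set. Lx8 has 270 peaks, and L1Md_F2 is the only young name among them, with 46.

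The repeat name was given by HOMER and does not say how much of a peak the repeat fills. The RefSeq genome sequence has a lower-case masking, whose program is not given in the sources used here and which does not name what it marks. In it the young peaks were masked over a median of 100% of their bases. The medians were 30.0% for rodent peaks and 15% for mammal-wide peaks. Non-promoter peaks outside repeats in HOMER's annotation had a median of 9.82%. The centre base was masked in 469 of the 2017 L1 peaks, so the other centres lay on sequence that this masking did not mark. Whether the masking misses L1 copies is not known, so these centres need not lie outside L1.

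HOMER gave a repeat name only to peaks it had assigned to an intron or to intergenic sequence, so other locations could not occur. Within these limits 922 L1 peaks were intronic (45.7%, interval 43.6 to 47.9%) and 1095 intergenic (54.3%). The intronic share was higher in sets with older names, going from 24.6% of young peaks (interval 15.2 to 37.1%) through 42.2% of rodent peaks (39.3 to 45.3%) to 51% of mammal-wide peaks (47.8 to 54.2%). These 3 intervals did not overlap. Peaks on other repeats were intronic in 46.1% (45.2 to 47.1%), the same within counting error as L1 peaks as a whole. Lx names stood at 43.8% and L1MB names at 58.6%. By curated RefSeq transcripts, 941 L1 peak centres were intronic, 1074 intergenic and 2 exonic.

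L1 peaks lay farther from promoters than peaks on other repeats, which got their names under the same rule. Non-promoter peaks outside repeats were 48.5% intronic and 42.5% intergenic by HOMER. They thus included peaks elsewhere that could not be L1 peaks, so they are not a like set for distance. The median distance to the nearest TSS was 28446 bp for L1 peaks, 23165 bp for peaks on other repeats and 21878 bp for non-promoter peaks outside repeats, where a promoter peak is one centred within 500 bp of a TSS. Among L1 peaks the median was 24188 bp for mammal-wide, 33146 bp for rodent and 39385 bp for young names. Within 10 kb of a TSS lay 413 L1 peaks (20.5%, interval 18.8 to 22.3%), against 25.3% of peaks on other repeats and 29.9% outside repeats. At the far end, 37 L1 peaks (1.83%, interval 1.33 to 2.52%) were more than 500 kb from any TSS, and 31 of these had rodent names. The share beyond 500 kb was 0.913% (0.750 to 1.11%) on other repeats and 0.608% (0.548 to 0.675%) outside repeats. By contrast, 4 of the 918 mammal-wide peaks (0.436%) were that far away.

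**Figure D2:**
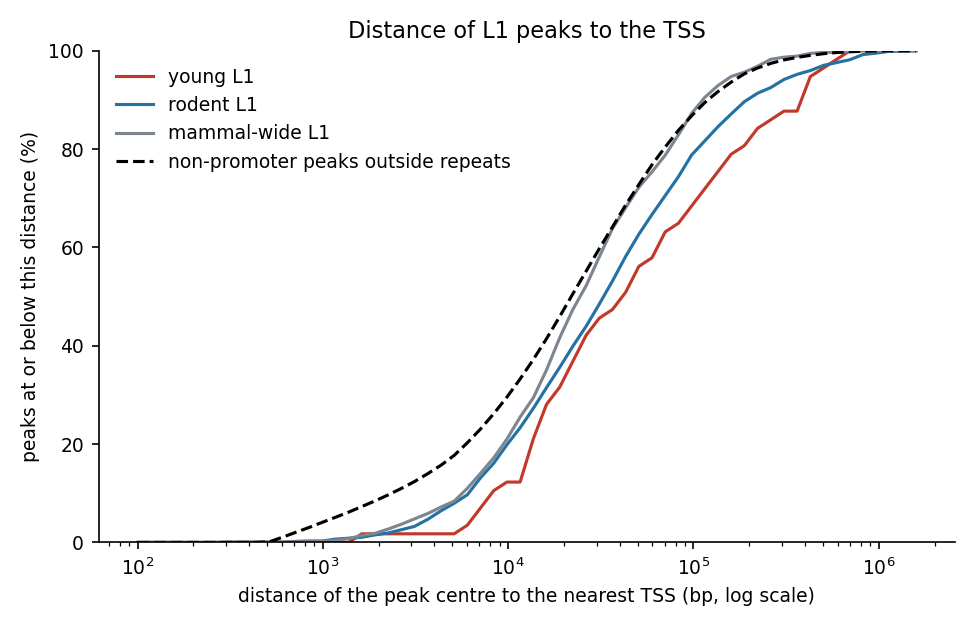
Cumulative share of peaks (y axis, %) at or below a distance from the nearest TSS (x axis, bp, log scale) for young, rodent and mammal-wide L1 peaks and non-promoter peaks outside repeats. The L1 lines lie to the right over most of the range, with medians of 39385, 33146 and 24188 bp against 21878 bp outside repeats. The set outside repeats includes peaks outside introns and intergenic sequence, which could not be L1 peaks.

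Peaks that HOMER assigned to promoters or exons carried no repeat name, so the counts and locations close to a TSS were limited by the annotation. The closest L1 peak upstream of a TSS lay at 1010 bp. A single L1 peak was centred within 500 bp of a TSS. It lay at chr6:116266583-116267081 on an L1MC1 element, in intron 1 of 6 of Zfand4, a zinc finger gene, 300 bp downstream of the TSS, and had a GC content of 48.7%. Another 4 L1 peaks lay within 1000 bp, and all 4 were in a first intron. They were an Lx5c peak at 621 bp in Akap7, which encodes an anchoring protein for protein kinase A, an L1M4b peak at 666 bp in Syncrip, which encodes an RNA-binding protein, and Lx8 peaks at 677 bp in Gbp2, an interferon-induced GTPase, and at 767 bp in D6Wsu163e. The Syncrip peak had a GC content of 76.4%, far above the median of L1 peaks, whereas the Gbp2 peak had 39.7%. At the other extreme, the L1 peak farthest from a TSS was an Lx6 peak 1406930 bp from that of Ppp6c.

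The list was also less dense around L1 peaks as a whole than around peaks on other repeats. The limit given above for the set outside repeats holds here too. Another peak centre lay within 5 kb of 886 L1 peaks (43.9%, interval 41.8 to 46.1%), against 49.4% (48.5 to 50.4%) on other repeats and 53.7% (53.3 to 54.1%) outside repeats. The mammal-wide peaks reached 51.1% (47.9 to 54.3%), and the rodent peaks 38.0% (35.1 to 41.0%). For the 57 young peaks the share was 36.8%, with a wide interval of 25.5 to 49.8%.

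The median GC content was 44.1% for L1 peaks, 46.1% for peaks on other repeats and 48.1% outside repeats. Young peaks had the lowest median, 38.5%, followed by mammal-wide peaks with 43.1% and rodent peaks with 45.3%. The low value of the young set goes with the ORF2 stretch, which held 33 of the 57 young peaks and had a median of 37.7%. Among the frequent subfamilies Lx5 had a median of 48.5% and L1M5 one of 39.6%.

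Young copies are nearly alike, so the sequence of a peak bears on whether a single read can be placed. Reads were paired, so a fragment could also be placed through a mate outside the peak, which was not measured. The share of 100-base words of a peak that occur once in the genome, on either strand, was taken as a measure for single reads, since 100 bases was the read length. All words were unique in 1922 L1 peaks (95.3%, interval 94.3 to 96.1%), against 98.4% of peaks outside repeats. For the young peaks this held in 24 of 57 (42.1%, interval 30.2 to 55.0%), and their median was 97.8% of words. No L1 peak was without a unique word. The least unique were an L1Md_F3 peak near 9930111J21Rik2, with 25.0% of words, an L1Md_T peak near Dars, with 39.2%, and an L1Md_F2 peak near 2200002J24Rik, with 44.8%. With 50-base words the median of the young peaks was 49.1%, and in none of the 57 were all words unique. A single read of 100 bases from a copy whose words all recur has no unique place. Whether such copies could enter the list through mates was not tested.

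L1 peaks were found on every autosome and on X. Their share of the peaks of a chromosome ran from 1.53% on chromosome 8 (interval 1.20 to 1.96%) to 3.46% on chromosome 14 (2.88 to 4.16%), and these intervals did not overlap. On X, whose sequence is rich in L1, lay 52 L1 peaks, or 2.58% of all L1 peaks (1.97 to 3.37%). The whole list had 2.17% of its peaks on X, and X makes up 6.18% of the assembled bases. Sequence similar to an L1 stretch of 6651 bp, which holds both reading frames and is described next, covered 23.2% of X and 12.1% of the genome. The Y chromosome had 11 peaks in the list and no L1 peak.

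To place peaks within the element, they were aligned to a stretch of 6651 bp on the plus strand of chr6:69952221-69958871 that holds both reading frames uninterrupted, ORF1 with 371 codons at positions 650 to 1765 and ORF2 with 1281 codons at positions 1806 to 5651. It was the stretch near a young peak with the longest open frame. Its ends were set by fixed distances, so they need not be the true ends of the element. The centres of 185 L1 peaks could be aligned, among them 53 of the 57 young peaks, 126 rodent peaks and 6 mammal-wide peaks. ORF2 held 106 of these centres and the sequence after it 75, while ORF1 held 3 and the sequence before it 1. The 1 peak in the sequence before ORF1 was an L1Md_F peak near Aqp9.

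Within ORF2 many peaks lay in a narrow interval. The 250 bp from position 2751 to 3000 held 53 centres, 34 young and 19 rodent, whereas the interval before it held 0 and the interval after it 1. Copies of these intervals in the genome did not differ in this way, with means of 39532 copies at positions 2751 to 3000, 38361 before and 39027 after. A second interval with many centres in ORF2 was that from 5001 to 5250, with 23 centres, 21 of them rodent and 0 young, against 1 in the interval before it and 10 in the one after, at means of 73009, 62331 and 87184 copies. Many centres also lay at the 3′ end. There 30 and 37 centres lay at positions 5751 to 6000 and 6001 to 6250, and these intervals had the most copies, 103928 and 126327.

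**Figure D3:**
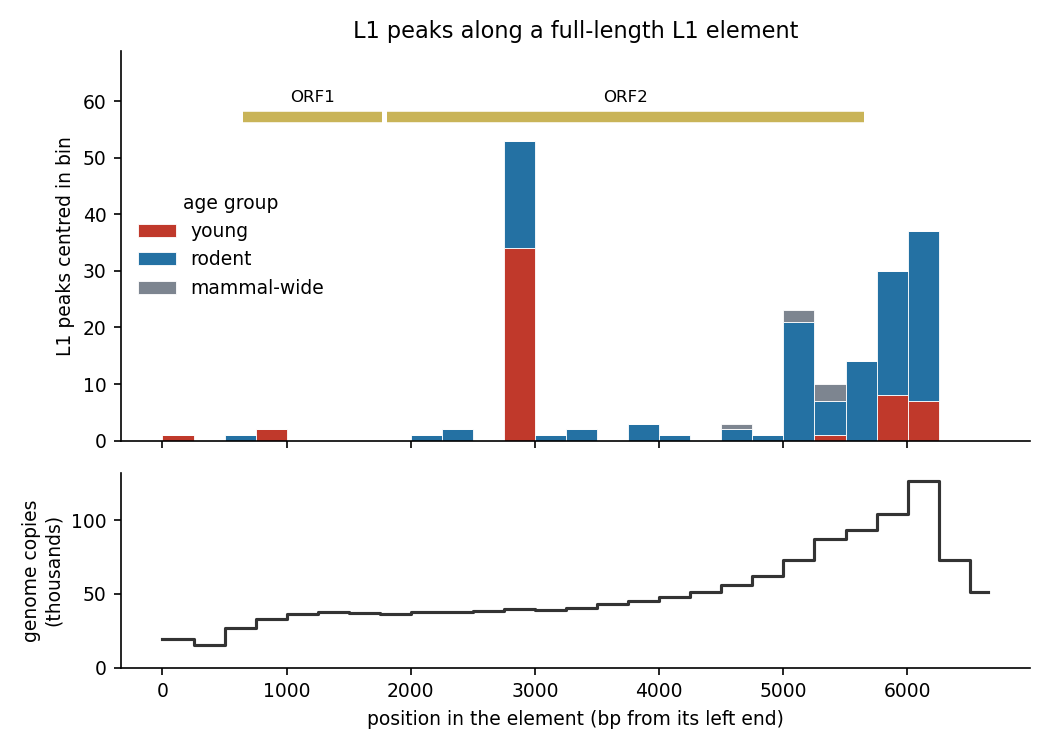
Upper panel, number of L1 peak centres (y axis) per 250-bp bin of the element (x axis, position in bp), stacked by age set, with the reading frames marked. Lower panel, mean number of genome copies of each bin; the bin at 2751 to 3000 holds 53 centres and the bins on either side 0 and 1, at similar copy numbers.

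Next, L1 peaks were compared with each other. A peak was counted as sharing a segment when it aligned with another L1 peak across both centres, with the centres no more than 50 bp apart. This was so for 584 L1 peaks (29.0%, interval 27.0 to 31%), for 50 of the 57 young peaks (87.7%), for 520 rodent peaks (49.9%) and for 14 mammal-wide peaks (1.53%). By name, all 39 L1_Mus3 and all 30 Lx2 peaks shared a segment, as did 61 of 70 Lx5c peaks (87.1%) and 41 of 48 Lx5 peaks (85.4%), but 33 of 270 Lx8 peaks (12.2%). Grouping around the peak with the most partners gave 15 groups of at least 10 peaks, with 302 peaks together. The largest, on the ORF2 stretch, had 50 peaks from 18 chromosomes, 33 young and 17 rodent. L1Md_F2 gave 26 of them and L1_Mus3 gave 5, and their centres lay at element positions 2790 to 2897. Of these 50 peaks 37 were intergenic. Some of the other groups belonged mostly to 1 subfamily. A group of 28 peaks held 24 Lx5c and 4 Lx6 peaks, a group of 24 held 21 Lx7 peaks, a group of 14 held 11 Lx5 peaks, and a group of 12 was made of Lx9 peaks only. Others were mixed. A second group of 28 peaks carried 7 names, with 11 Lx4A and 7 Lx5 peaks, a group of 20 carried 11 names, and a group of 16 carried 13. A group of 38 peaks lay at the 3′ end, at a median element position of 6003.

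A centred peak was a rare state of these segments. The ORF2 segment had 36880 copies in the genome, of which 45 had a peak centred within 50 bp of the same base (0.122%). Of the 2915 copies of the Lx5c segment 22 had a centred peak (0.755%), of the 3277 copies of the Lx7 segment 20 did (0.610%), and of the 1592 copies of the Lx9 segment 9 did (0.565%). The segment at the 3′ end had 33 centred peaks in 122671 copies (0.0269%). The same base lay anywhere inside a peak in 57 ORF2, 33 Lx5c, 30 Lx7, 14 Lx9 and 128 3′ end copies. The search did not find every peak of a group again as a copy. It found 45 of the 50 ORF2, 22 of the 28 Lx5c, 20 of the 24 Lx7, 9 of the 12 Lx9 and 32 of the 38 3′ end peaks. For the ORF2 segment the share with a centred peak depended on how unique a copy was. It was 0.00910% (1 of 10984) where at most 25% of 100-base words were unique, 0.334% (21 of 6295, interval 0.218 to 0.510%) above 75% and below 100%, and 0.158% (22 of 13966, interval 0.104 to 0.238%) where all words were unique. The intervals of the last 2 overlapped.

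The copies with a centred peak differed from the others in the motifs they held. The others include copies inside a peak centred more than 50 bp away, which are counted below as copies without a peak. In the Lx5c segment the CTCF consensus occurred within 100 bp of the centre in 10 of 22 copies with a peak (45.5%, interval 26.9 to 65.3%) and in 38 of 2893 copies without one (1.31%, 0.959 to 1.80%). Read the other way, 10 of the 48 copies with the consensus had a centred peak (20.8%, interval 11.7 to 34.3%), against 12 of 2867 copies without it (0.419%, 0.24 to 0.730%). CTCF is a zinc finger protein that binds insulators and the anchors of chromatin loops. Of the 28 peaks of the Lx5c group 12 held the consensus within 100 bp of the centre, and 6 of these at the shared site. That site had a median offset of 9 bp from the centre, and 4 of the 6 peaks are printed above. One of the 28 peaks of the group lay 4668 bp upstream of S100a8. Copies with a peak had a median identity of 71.3% to the peak used for the search, and all copies one of 68.9%, and copies with and without a peak were not matched for identity or location.

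In the ORF2 segment, AGGAAG, the core recognised by ETS factors, occurred in 41 of 45 copies with a peak (91.1%, interval 79.3 to 96.5%) and in 64.5% of copies without one (64 to 65.0%). A centred peak was present in 0.172% of copies with the motif and in 0.0306% of copies without it. Among copies whose words were all unique, 18 of 22 with a peak (81.8%) and 34.1% of those without held the motif. With peaks centred within 25 bp only, 17 of 20 copies with a peak held it (85%, interval 64 to 94.8%), and this interval overlapped that of the copies without one (64.1 to 65.0%). Of the 50 peaks of the group 44 held an ETS match within 100 bp, and in 40 of them it was the same site, at a median element position of 2808. A site counted as the same if it and its flanks were alike to 1 reference site at 60% or more of positions. In these 40 peaks the commonest base of a flanking position occurred in a mean of 86.3% of peaks. In the Lx9 group 10 of the 12 peaks held an ETS match within 100 bp, but only 4 at the shared site. The Lx9 segment gave a like contrast from fewer copies, counted over any match within 100 bp. There, 7 of 9 copies with a peak (77.8%, interval 45.3 to 93.7%) and 30.8% of the others held AGGAAG, and a peak was present in 1.41% of copies with the motif and in 0.182% of copies without it. In the Lx5 group, PU.1 sites (GAGGAAGT, which contains the ETS core) occurred in 4 of 12 copies with a peak and in 3.69% of the others. Used here were the 12 segments with enough copies for which the search found again most peaks of the group. Over these segments and 14 motifs, 32 of 168 pairs had a higher share in copies with a peak, by intervals that did not overlap, and 3 had a lower one. Many of these rest on fewer than 5 copies with a peak.

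**Figure D4:**
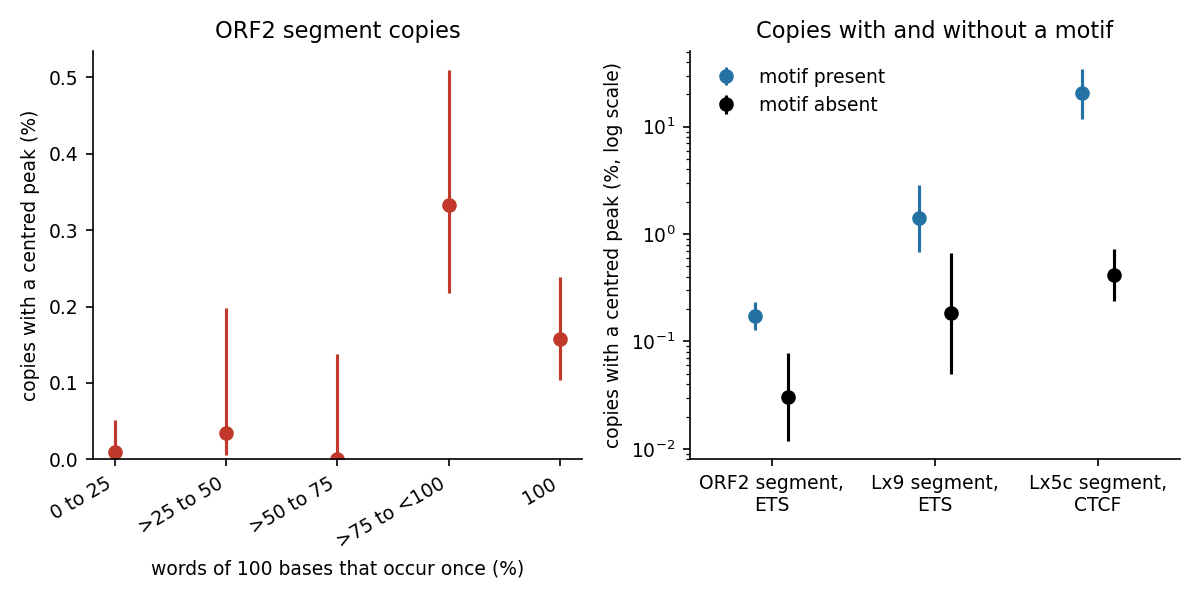
Left, share of ORF2 segment copies with a centred peak (y axis, %) by the share of their 100-base words that are unique (x axis). Right, share of copies with a centred peak (y axis, %, log scale) among copies with and without the motif for the ORF2 segment with ETS, the Lx5c segment with CTCF and the Lx9 segment with ETS; bars are 95% Wilson intervals, and for Lx5c the shares are 20.8% and 0.419%.

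Motifs were then counted in whole L1 peaks, as exact matches on either strand, and set beside non-promoter peaks on other repeats and outside repeats. The sets were not matched for base composition, with median GC contents of 44.1%, 46.1% and 48.1%. Its part in the motif differences was not tested. Of the 14 motifs, 8 were more frequent in L1 peaks than outside repeats. PU.1 is among these 8, although its interval in L1 peaks included the value outside repeats. Among motifs of factors that act throughout blood development, the RUNX motif AACCACA occurred in 24.8% of L1 peaks (interval 23.0 to 26.8%), in 20.6% on other repeats and in 17.3% outside repeats. The GATA motif AGATAA occurred in 30.8% (28.9 to 32.9%), 29.2% and 26.4%. AGGAAG stood at 64.3%, 64% and 65.2%, and the interval of L1 peaks (62.1 to 66.3%) included both other values.

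Among motifs of myeloid and immune factors, TTGCNNAA of CEBP factors was found in 24.8% of L1 peaks, 18.4% on other repeats and 21% outside repeats. GAGGAAGT of PU.1 was found in 10.6%, 14.5% and 9.46%, so that L1 peaks were below other repeats, while their interval (9.34 to 12.0%) included the value outside repeats. GAANNGAAA of interferon regulatory factors (IRF) was found in 23.0%, 16.9% and 18%. The octamer ATGCAAAT, bound by POU factors of B cells, was found in 5.40%, 3.32% and 3.63%. CTTTGAT of TCF factors stood at 9.62%, 7.63% and 7.35%.

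Other motifs were less frequent in L1 peaks. The CTCF consensus occurred in 84 L1 peaks (4.17%, interval 3.38 to 5.13%), in 5.28% on other repeats and in 9.53% outside repeats. Where present, its median offset from the centre was 23 bp, and it was within 50 bp in 76.2% of cases. The E-box CAGGTG occurred in 23.2%, 31.2% and 33.5%, and the E-box CAGCTG in 24.6%, 26.4% and 31.4%. CCACCC of KLF factors occurred in 31.2%, 33.9% and 38.5%. TGANTCA of AP-1 was found in 15.4%, 17.6% and 16.8%, and the interval of L1 peaks (13.9 to 17.0%) included the value outside repeats. CCATNTT of YY1, which was higher in L1 peaks, was found in 32.0%, 28.1% and 26.6%.

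The age sets differed in their motifs. CTCF matches were found in 6.14% of rodent peaks (interval 4.84 to 7.77%), in 2.18% of mammal-wide peaks (1.42 to 3.34%) and in 0 of 57 young peaks, which allows a share of up to 6.31%. This order depended on the exact match, since with 1 mismatch allowed the CTCF consensus was found in 38 of 57 young peaks (66.7%, interval 53.7 to 77.5%), in 26.9% of rodent, in 15.8% of mammal-wide and in 30.9% of peaks outside repeats. RUNX matches were found in 28.2% of mammal-wide, 22.8% of rodent and 7.02% of young peaks. CAGGTG was found in 29.5% of mammal-wide and 18% of rodent peaks, and CCACCC in 26.3% and 36.2%. Over the whole peak, young peaks were high for GATA, with 28 of 57 (49.1%, interval 36.6 to 61.7%), and for IRF, with 27 (47.4%, 35.0 to 60.1%), and none held a PU.1 match. Of the 33 young peaks on the ORF2 stretch, 25 held a GATA and 24 an IRF match, against 3 each of the other 24 young peaks. In the central 200 bp young peaks were not high for either motif. There 10.5% of them held a GATA match, against 12.5% of peaks outside repeats, and 5.26% an IRF match, against 8.48%.

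**Figure D5:**
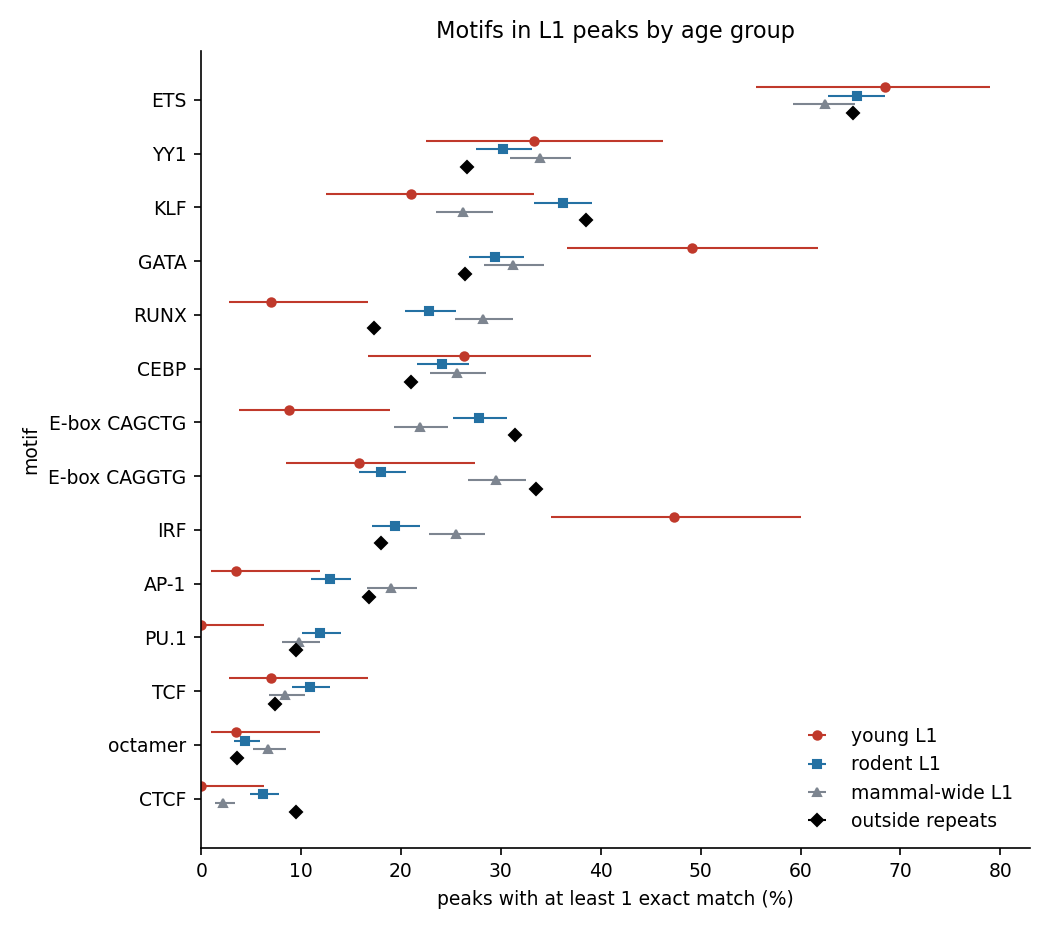
Share of peaks with at least 1 exact match (x axis, %) for each of 14 motifs (y axis) in young, rodent and mammal-wide L1 peaks and in non-promoter peaks outside repeats, with 95% Wilson intervals as bars. ETS matches are the most frequent in every set, and no young peak holds a CTCF or PU.1 match.

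By subfamily, among 33 names with at least 20 peaks, 66 of 462 pairs of name and motif had an interval that left out the share of all L1 peaks. Of Lx4A peaks 69.2% held CCACCC, 57.7% CAGCTG, and 13 of the 26 the AP-1 motif, and CCACCC was also frequent in Lx2 (66.7%) and Lx5 (56.3%). L1_Mus3 peaks held the TCF motif in 41.0%. Lx9 peaks held the RUNX motif in 43.3% (interval 34.2 to 52.9%) and the CEBP motif in 40.4%. In Lx8, the largest subfamily, CAGCTG reached 39.3% (33.6 to 45.2%), PU.1 17.0% and CTCF 8.52%. Among mammal-wide names, L1MB8 had CAGCTG in 47.1%, L1MB3 had AGGAAG in 80.0%, and L1MB7 had AGGAAG in 43.1%. Lx5c peaks, which include the CTCF copies described above, held the CTCF consensus in 14.3% (7.95 to 24.3%) and CAGGTG in 1.43%. Peaks of a subfamily often share a sequence, so they are not independent.

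The nearest promoters of L1 peaks belonged to 1711 genes, of which 1468 had 1 L1 peak, 195 had 2 and 38 had 3. Protein-coding genes were nearest to 84.5% of L1 peaks, against 83.9% of non-promoter peaks outside repeats. The most, 6 of its 24 peaks, belonged to Oxsm, a mitochondrial enzyme of fatty acid synthesis, at 24165 to 313005 bp. Ctsc, the protease cathepsin C of granulocyte and lymphocyte granules, had 5 of 25, with an intronic L1Md_F2 peak that lies inside Grm5, 176298 bp upstream of the Ctsc TSS. Entpd1, the ectonucleotidase CD39 of leukocytes, had 5 of 21, all of them intronic and within 8083 to 20073 bp of the TSS. With 4 L1 peaks each followed Cxcr4, the chemokine receptor that holds HSCs in the marrow, Fer, Gpr141, Hao1, Igf1r, Platr10 and Prim2. For Gpr141 these were 4 of its 7 peaks (57.1%), and for Cxcr4 they were 4 of 42 (9.52%), at 44413 to 105876 bp.

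The lineage lists comprised 136 genes chosen as markers or regulators of the 6 cell types. Some of these are genes that the study shows as examples from these data, and none of those examples was nearest to an L1 peak. Genes of the lists were the nearest genes of 24 L1 peaks, at 18 genes, and most of these peaks are described singly because they have a gene of known lineage beside them. This is 1.19% of L1 peaks (interval 0.801 to 1.76%), against 1.03% on other repeats, 1.48% outside repeats and 1.34% of the whole list. The interval of L1 peaks included the share of the whole list. The T cell list had 9 of them, or 0.446% of L1 peaks (interval 0.235 to 0.846%) against 0.319% of the whole list. The EP, GM and B cell lists had 4 each, or 0.198% of L1 peaks, against 0.172%, 0.144% and 0.264% of the whole list. The HSC list had 2, or 0.0992% (0.0272 to 0.361%) against 0.322%, and the MkP list had 1, or 0.0496% against 0.119%. With so few peaks the intervals of L1 peaks included the share of the whole list in all 6 lists. Being next to a gene of a lineage does not say in which cell type the peak was open. In these 24 peaks the E-box CAGCTG was the most frequent motif, in 12 (50%, against 24.6% of all L1 peaks), followed by AGGAAG in 11 (45.8% against 64.3%) and the CEBP and AP-1 motifs in 8 each (33.3%, against 24.8% and 15.4%).

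For the stem cell list, an Lx4A peak at chr16:95380843-95381341 lay in intron 4 of 8 of Erg, 78256 bp from its TSS, and an Lx8 peak at chr9:32472350-32472848 in intron 2 of 8 of Fli1, 68853 bp from its TSS. Both genes encode ETS factors of stem cells and megakaryocytes, and both peaks held AGGAAG and the PU.1 motif, the Fli1 peak also GATA and RUNX matches. The peak of the MkP list, an Lx8b peak at chr6:125540809-125541307, was 11890 bp upstream of Vwf, which encodes the adhesion protein von Willebrand factor. For the erythroid list, Rhag, a protein of the red cell membrane, had 2 of its 5 peaks on L1, both in intron 1 of 9. They were an L1_Mus4 peak at chr17:40817333-40817831, 6433 bp from the TSS, and an Lx8 peak at chr17:40824483-40824981, 13583 bp from it, which held a CTCF match. Alas2, the erythroid enzyme that starts heme synthesis, had an Lx8b peak 31211 bp upstream, and Zfpm1, which encodes the GATA cofactor FOG1, an L1MB7 peak 100539 bp upstream.

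For the GM list, S100a8, a calcium-binding protein abundant in neutrophils, had 2 of its 4 peaks on Lx5c. The one at chr3:90664154-90664652 was 4668 bp upstream of the TSS and belonged to the Lx5c group described above, with a GC content of 47.9%, and the one at chr3:90663199-90663697 was 5623 bp upstream, with 34.1%. Their centres were 955 bp apart. Of the 14 motifs, the nearer peak held only a match to the CTCF consensus, and the other held CEBP and YY1 matches. Itgam had the Lx8b peak printed above, 3152 bp from its TSS in intron 2 of 29, and an L1M2 peak 26700 bp from it in intron 12. For the B cell list, Cd22, an inhibitory receptor of B cells, had an L1MB8 peak 7412 bp upstream. Il7r, the receptor chain for interleukin 7, had an Lx3B peak 25302 bp upstream and an L1_Mus1 peak 42688 bp downstream. Irf4, a transcription factor of B cell maturation, had an L1MC4a peak 18986 bp upstream.

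For the T cell list, Cd247 had an L1MB7 peak at chr1:165786329-165786827, 2103 bp upstream of its TSS, which was the closest of the 24. Ets1, a transcription factor of lymphocytes, had an L1MB8 peak 16335 bp upstream and an Lx8 peak 30819 bp downstream. Prkcq, the kinase PKC theta, had an L1MB4 peak at 36130 bp in intron 1 of 17, and Cd28, the costimulatory receptor, an Lx9 peak 35420 bp downstream. Another 2 were distant. The L1_Mus3 peak assigned to Themis lay in an intron of Ptprk, 227737 bp upstream of Themis, and the L1Md_F2 peak assigned to Gata3 lay 201261 bp downstream of it.

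Among the young peaks, the 10 with the most unique sequence had unique 100-base words throughout. Their nearest genes were Aqp9, a water and glycerol channel, Cntnap5b, Cdk6, a cell cycle kinase, Chordc1, Chil3, a chitinase-like protein of macrophages, Tlr4, the receptor for lipopolysaccharide, Ifi204, an interferon-induced gene, Ctsc, Gata3 and Olfr1418. The Aqp9 peak was L1Md_F at chr9:71093994-71094492, with a GC content of 52.7%, and the others were L1Md_F2 except for L1Md_F3 near Olfr1418. The peaks near Chil3, Tlr4 and Ctsc belonged to the ORF2 group, at element positions 2823, 2793 and 2809, and the Gata3 peak was centred beside it, at 2757. They were at very different distances from their genes, 7617 bp upstream of Chil3 and 243821 bp downstream of Tlr4. Another young peak, also L1Md_F2 and at element position 5317, lay 5167 bp upstream of Chil3, so that both peaks assigned to this gene were on young L1 elements.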

How the data were processed

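ATAC-seq reads of the 12 samples were processed by the authors with the ENCODE pipeline on mm10, without reads that map to several places. Peaks that were reproducible between replicates were joined over the cell types, reduced to non-overlapping peaks with chromVAR and annotated with HOMER, version 4.10.2 in the submitters' processing notes. Positions and distances to the TSS, in bp, were used as deposited, and every peak was 499 bp wide. The deposited score, 0 throughout, was not used. The list holds 0 columns of values per sample, so depth is unknown.

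The members, gene lists, motifs and age sets were chosen with earlier results of these data known. The search for shared segments and for their copies was added after the data were seen. Genes were named if they were the 10 with the most L1 peaks, were in the lineage lists, had an L1 peak within 500 bp of a TSS, were nearest to the 10 young peaks with the most unique words, or lay beside a printed sequence. Genes within 1000 bp of an L1 peak, those beside the least unique peaks, the gene farthest from its L1 peak and the segment sequences were chosen after their values were seen. Peaks at 1 lineage gene are not reported here.

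Sequence, transcripts and masking came from NCBI RefSeq of GRCm38. Motifs were matched as consensus strings, and PU.1 matches are also ETS matches. Words of 100 bases were counted on both strands of 21 chromosomes. Segments and copies were found with BLAST+ 2.17.0 (e-value 1e-5), and a copy had to cover 50 bp on each side of the centre. The searches were tested on simulated data, in which all 700 planted sites of 14 motifs were found. Shares have 95% Wilson intervals. Computations ran in Python 3.11.15 with numba 0.67.0, numpy 2.4.6, pandas 2.3.3, matplotlib 3.10.9 and scipy 1.17.1.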

Additional observations from a re-analysis of the deposited data

How the results depend on the processing

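The list has no value per sample, so leaving out a replicate was not possible. No paired analysis was possible because no result comes from a comparison of samples. A stricter score could not be applied, since the score is 0 in every peak. Of 34 alternatives to the main counts, shares and medians, 23 left the value within its interval or within 1.5 times the count, and 11 moved it. The 2017 L1 peaks fell to 343 when at least 50% of the bases had to be masked and to 469 when the centre base had to be. The young peaks rose from 57 to 149 with L1_Mus and L1VL names among them. The peaks within 500 bp of a TSS went from 1 to 0 at 100 bp and to 5 at 1000 bp. In the central 200 bp the median GC content was 46.5% for all L1 peaks, 41.0% for young, 47.5% for rodent and 45.0% for mammal-wide peaks. The median share of unique words in young peaks fell to 49.1% with 50-base words, and the share of L1 peaks with another peak nearby rose from 43.9% to 66.0% within 10 kb. The cause of the GC differences was not tested. Since the masking program is not known, the counts of 343 and 469 do not show how many peaks lie on L1. The other changes follow from wider or narrower definitions. For motifs, 25 of 42 alternatives moved the difference by more than counting error, 11 of them with 1 mismatch, and 13 did not. The GATA difference went from 4.46 to 1.95 points in the central 200 bp, and with 1 mismatch that of YY1 went from 5.42 to 0.87, of CAGGTG from -10.33 to -0.43 and of the octamer from 1.78 to 13.0. With 1 mismatch YY1 matches were in 99.7% of L1 peaks and 98.8% outside repeats, and CAGGTG matches in 99.1% and 99.5%. Nearly every peak then had a match, so for such motifs this alternative could hardly show a difference. The octamer was in 48.8% and 35.8%. In the other 4 of the 42 alternatives, the difference between L1 peaks and peaks outside repeats changed sign for ETS, from -0.98 to 1.47 points in the central 200 bp and to 0.22 against other repeats, for PU.1, from 1.15 to -3.85 against other repeats, and for AP-1, from -1.43 to 1.82 with 1 mismatch allowed. The cause was not tested. Alternatives chosen after seeing the data put the share of peaks with a shared segment at 26.2% with centres within 25 bp, and the ETS difference between ORF2 copies with and without a peak at 47.8 points, from 26.6, among copies with unique words only and 20.5 with peaks within 25 bp, where the intervals overlapped. Under these alternatives they stayed apart for CTCF in Lx5c, PU.1 in Lx5 and ETS in Lx9 copies.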
